A study of Homo sapiens with 4 samples.

Results

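The genes described here are 36 genes of protein folding in the endoplasmic reticulum (ER), the unfolded protein response and the export of collagen, out of 63241 genes counted. They were chosen by gene symbol from what they are known to do, with earlier results of these data known. All 36 were found, each once, and all 36 were among the 16099 genes that reached 1 scaled count per 1000000 counts (CPM) in 1 or more libraries. The RNA came from LX-2, a human hepatic stellate line made immortal in culture and a stand-in for the cells that deposit collagen in scarred liver. All cultures were starved for 24 h in medium with 0.5% serum and then treated for 24 h, giving 4 groups of 1 library each. One group received TGF-β at 20 ng/mL with the compound BDS4 at 5 µM, and one received TGF-β at 20 ng/mL with RVX-208 at 5 µM. One received TGF-β at 20 ng/mL without a compound, and its table column is labelled DMSO. The Control group received none of these agents, and its label names no DMSO, so TGF-β and vehicle cannot be told apart in that comparison. RVX-208 (apabetalone) is a BET bromodomain inhibitor that prefers the second bromodomain. For BDS4 only a code name is given, and the series' title concerns covalent inhibitors of the first bromodomain. The BDS4 column carries a code that does not name the compound, so its match to the group rests on the sample's description.

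Proteins that enter the secretory pathway are threaded into the ER, folded by chaperones, joined by disulfide bonds and inspected by lectins. Chains that fail are passed back to the cytosol and degraded, a route called ER-associated degradation (ERAD). When unfolded chains build up, the sensors IRE1 (gene ERN1), PERK (EIF2AK3) and ATF6 start the unfolded protein response, which raises chaperones and ERAD factors and slows translation. Procollagen needs extra helpers, the chaperone HSP47 (SERPINH1) and enlarged COPII carriers, and stellate cells are the main source of collagen in injured liver. Gene counts do not measure splicing of XBP1 RNA, cleavage of ATF6 or activity of PERK, which are how these sensors signal.

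Libraries held 17022369 to 22503094 counts. With 1 library per group, the spread between cultures is unknown and nothing was tested. Each ratio is given with a 95% interval that covers counting error only, and the word called is kept for genes that differed 2-fold or more with an interval that left out 1. In bulk RNA, fewer cells of a kind and less RNA per cell cannot be told apart. Markers named for the line were mixed: VIM stood at 4080, 4052, 3551 and 3290 CPM in the BDS4, RVX-208, TGF-β and Control libraries, and 5 of 7 stellate and mesenchymal markers passed the filter. Of these 5, COL1A1, PDGFRB and TAGLN were called lower with BDS4 over TGF-β, PDGFRB at 5.98 against 135.8 CPM and TAGLN at 241.7 against 700.2 CPM, and ACTA2 had 19.2 against 27.0 CPM. LRAT had 0 counts in all 4, and DES had 11 counts with BDS4 and 0 in the other 3. Summed over each list, the stellate and mesenchymal markers came to 4450 CPM with BDS4, 7617 with RVX-208, 9119 with TGF-β and 5800 in Control. The hepatocyte list summed to 1.62 to 3.80 CPM, with TTR at 0 in all 4 libraries, and the endothelial list to 6.16 to 11.8 CPM. The immune list summed to 11.6 to 34.9 CPM, with PTPRC at 0 with RVX-208 and TGF-β. The cholangiocyte and epithelial list summed to 112.6 CPM with BDS4, 302.0 with RVX-208, 466.4 with TGF-β and 237.2 in Control, nearly all of it KRT18, and EPCAM was at 0 with BDS4. Mitochondrial ribosomal RNA made up 0.903% of counts with BDS4, against 0.230%, 0.248% and 0.212% in the RVX-208, TGF-β and Control libraries. The 13 mitochondrial messenger RNAs had a median log2 ratio of -0.60 for BDS4 over TGF-β, and all 13 ratios were negative, beside 8109 of all 16099 genes. By the rule of 2-fold 0 of 13 were called, against 32.2% of all genes. With a threshold of 1.5-fold 7 were lower, against 26.5% of all genes. What part these differences had in the results below was not tested.

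Many of the genes are known targets of the unfolded protein response, so their promoters were searched for its elements. RefSeq promoter windows of GRCh38.p14, from 250 bases before the start of transcription to 50 bases after, were found for 32 of the 36 genes. The ER stress element was searched on both strands as CCAAT, then 9 bases of any kind, then CCACG. It occurred in 8 of 32 genes (25%), namely HSPA5, HSP90B1, CRELD2, CALR, CANX, PDIA6, ERO1B and XBP1, against 0.0916% of 27305 genes with a window. The second form, ATTGG, 1 base of any kind and CCACG, occurred in HYOU1, SDF2L1 and HERPUD1, against 0.0696% of genes. Both contain the letters CCACG, which alone occur in 23 of the 32 genes and in 42.1% of all genes. The genes were chosen for what they are known to do, so these contrasts follow in part from that choice. They are no independent result. The window of HSPA5, which encodes the master ER chaperone BiP, is shown whole as the textbook case, with the element in capitals. It lies at chr9:125241294-125241593 on the minus strand.
HSPA5 promoter: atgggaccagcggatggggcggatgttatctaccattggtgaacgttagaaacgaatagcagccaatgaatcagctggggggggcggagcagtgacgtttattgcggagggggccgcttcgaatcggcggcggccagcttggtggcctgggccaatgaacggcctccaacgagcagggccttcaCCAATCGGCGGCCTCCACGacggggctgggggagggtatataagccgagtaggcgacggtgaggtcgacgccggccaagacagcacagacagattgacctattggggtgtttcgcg
Elements of 5 further genes, from each role that holds one, are shown on the strand of the match with the fixed letters in capitals. For HSP90B1, which holds 2, the one further from the start is shown.
HSP90B1 (chr12:103930216-103930234, plus strand): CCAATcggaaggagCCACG
CALR (chr19:12938384-12938402, minus strand): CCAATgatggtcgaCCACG
XBP1 (chr22:28800603-28800621, minus strand): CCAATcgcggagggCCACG
ERO1B (chr1:236282183-236282201, plus strand): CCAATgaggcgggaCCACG
HERPUD1 (chr16:56932025-56932035, plus strand, second form): ATTGGgCCACG
A match is a description of these letters and not evidence of binding. Among the 8 genes with the first form, 1 (ERO1B) was called with BDS4 over TGF-β, against 32.2% of all genes. The 8 ratios ran from 0.804 for PDIA6 to 4.36 for ERO1B, and a link between element and ratio was not tested.

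**Figure D1:**
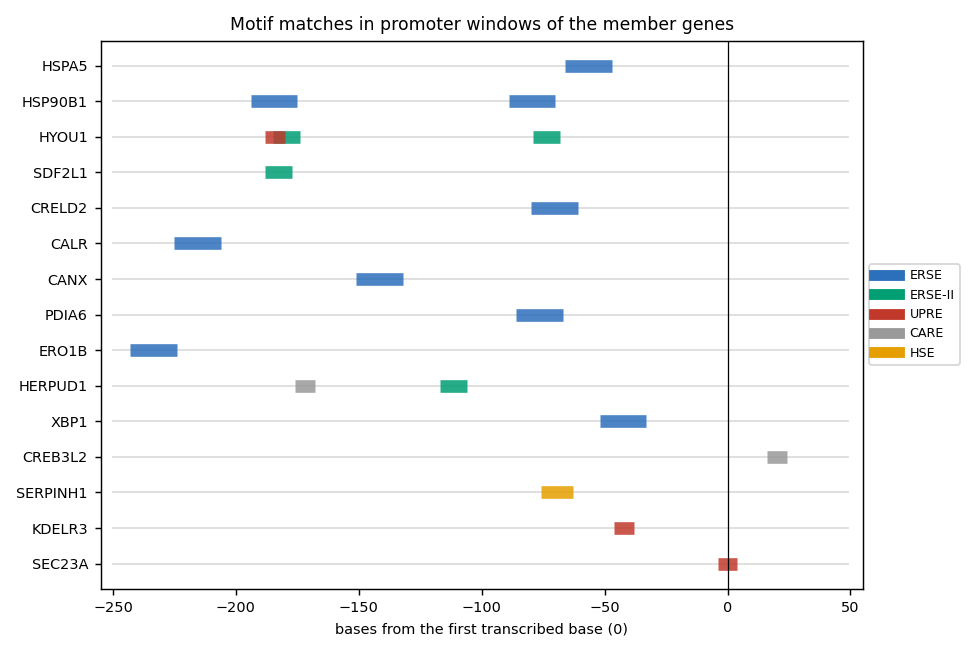
Positions of motif matches in promoter windows of the genes that hold one, in bases from the first transcribed base (0 on the horizontal axis). ER stress elements (ERSE) occur in 8 genes and the second form (ERSE-II) in 3. UPRE, CARE and HSE are other stress motifs whose letters are given in the text.

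With BDS4 and TGF-β against TGF-β, 9 of the 36 genes were called (25%), 5 higher and 4 lower, against 32.2% of all 16099 genes (14.5% higher and 17.7% lower). The share of called genes was thus not above that of all genes, and with a threshold of 1.5-fold it was 16 of 36 against 50.9% of all genes. ERN1, DNAJB9, ERO1B, DNAJC3 and HERPUD1 were higher, and SERPINH1, CREB3L1, KDELR3 and SEC23A were lower. The median log2 ratio of the 36 genes was 0.24, beside -0.01 over all genes. Counts of the 36 genes summed to 9171, 8678, 7290 and 7232 CPM in the BDS4, RVX-208, TGF-β and Control libraries. Their level was highest with BDS4 for 19 genes, with RVX-208 for 9, with TGF-β for 6 and in Control for 2, while over all genes these shares were 38.9%, 14.3%, 21.1% and 25.7%.

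**Figure D2:**
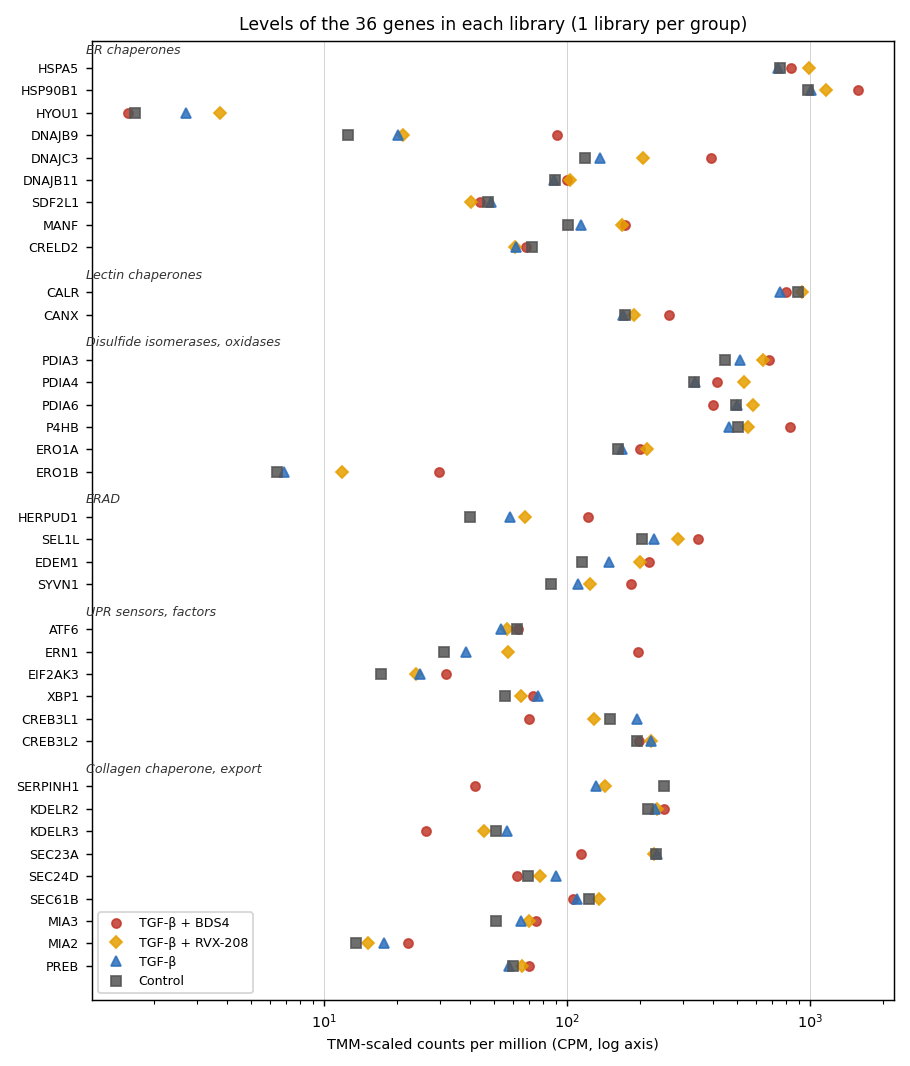
TMM-scaled CPM (log axis) of the 36 genes, grouped by role, with 1 point per library. The BDS4 points of ERN1, DNAJB9 and ERO1B lie well right of the other 3, and those of SERPINH1, CREB3L1, KDELR3 and SEC23A well left.

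Among the 9 ER chaperones and their partners, DNAJB9 and DNAJC3 were called higher with BDS4 over TGF-β and none was called lower. This is 22.2% called, against 32.2% of all genes (14.5% higher and 17.7% lower). DNAJB9 (ERdj4), a J-domain cochaperone of BiP that holds IRE1 in check, stood at 91.1 CPM with BDS4, 21.3 with RVX-208, 20.2 with TGF-β and 12.6 in Control. The BDS4 library was alone at this level, 4.52 times TGF-β (95% interval 4.07 to 5.02), while RVX-208 and TGF-β differed by a ratio of 1.06 (0.916 to 1.22). DNAJC3 (p58IPK), a cochaperone of BiP also known as an inhibitor of PERK, stood at 392.6, 205.8, 136.5 and 118.9 CPM in the BDS4, RVX-208, TGF-β and Control libraries. Its ratios over TGF-β were 2.88 (2.76 to 3.00) with BDS4 and 1.51 (1.44 to 1.58) with RVX-208. DNAJB9 lies at chr7:108569568-108574850 on the plus strand (GENCODE 29, GRCh38). Its promoter window, chr7:108569624-108569923, held neither form of the element, and is shown because the gene had the second largest ratio of the 36. Capitals mark CCACG on either strand.
DNAJB9 promoter: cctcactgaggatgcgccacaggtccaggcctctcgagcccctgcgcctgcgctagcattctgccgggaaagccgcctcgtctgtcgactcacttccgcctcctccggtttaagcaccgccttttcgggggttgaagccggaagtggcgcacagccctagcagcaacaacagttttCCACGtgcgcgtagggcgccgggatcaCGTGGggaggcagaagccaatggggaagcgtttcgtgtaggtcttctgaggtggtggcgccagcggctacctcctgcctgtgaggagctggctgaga

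For BDS4 over TGF-β, HSPA5 and HSP90B1 had ratios closer to 1 than these cochaperones. HSPA5 (BiP) stood at 838.8 CPM with BDS4, 991.6 with RVX-208, 738.5 with TGF-β and 757.6 in Control, and was highest with RVX-208. Its ratios over TGF-β were 1.14 (1.11 to 1.16) with BDS4 and 1.34 (1.31 to 1.37) with RVX-208. HSP90B1 (GRP94), the ER paralog of HSP90, stood at 1579, 1168, 1009 and 985.8 CPM in the same order, a ratio of 1.57 (1.54 to 1.59) for BDS4 over TGF-β. MANF, a secreted ER stress protein that binds BiP, had 173.6 and 168.8 CPM with BDS4 and RVX-208, against 114.5 CPM with TGF-β. Both compounds thus gave similar values for MANF, with ratios of 1.52 and 1.47. The BiP partners DNAJB11, SDF2L1 and CRELD2 had ratios between 0.825 and 1.16 over TGF-β with either compound. HYOU1, a nucleotide exchange factor of BiP, had only 32, 63, 60 and 40 counts in the BDS4, RVX-208, TGF-β and Control libraries. At 1.57, 3.74, 2.72 and 1.67 CPM its ratios are the least certain of the set, and its interval for BDS4 over TGF-β ran from 0.364 to 0.901.

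The lectin chaperones calreticulin (CALR) and calnexin (CANX) hold glycoproteins during folding, and neither was called in any comparison. CALR stood at 795.0, 929.4, 753.5 and 893.5 CPM in the BDS4, RVX-208, TGF-β and Control libraries. CANX, its membrane-bound counterpart, stood at 263.4 CPM with BDS4, 189.1 with RVX-208, 170.4 with TGF-β and 173.2 in Control, a ratio of 1.55 (1.48 to 1.61) for BDS4 over TGF-β. Per kilobase of exon, CALR, HSP90B1 and HSPA5 were the highest of the 36 in the TGF-β library, at 278, 215 and 189 CPM per kilobase. These levels use GENCODE 29 exon lengths, and the lengths implied by the deposited FPKM values were 1.12 to 16.5 times as long for the 36 genes, so the order of levels depends on the annotation.

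Of the 6 disulfide isomerases and oxidases, ERO1B was called higher with BDS4 over TGF-β (16.7% called, against 32.2% of all genes). None was called with RVX-208 over TGF-β, against 8.19% of all genes. ERO1 enzymes pass electrons from disulfide isomerases to oxygen. ERO1B stood at 29.8 CPM with BDS4, 11.9 with RVX-208, 6.84 with TGF-β and 6.45 in Control. Its ratio over TGF-β was 4.36 (3.64 to 5.25) with BDS4 and 1.74 (1.40 to 2.16) with RVX-208. Its more abundant relative ERO1A stood at 199.8, 213.6, 169.2 and 162.4 CPM in the same order, so the compound libraries differed from TGF-β far less for ERO1A. P4HB, the isomerase PDI that is also the beta subunit of collagen prolyl 4-hydroxylase, stood at 830.4 CPM with BDS4, 555.5 with RVX-208, 464.5 with TGF-β and 505.2 in Control. Its ratio for BDS4 over TGF-β was 1.79 (1.74 to 1.83). PDIA4 was highest with RVX-208, at 537.9 CPM, against 414.6 with BDS4, 337.4 with TGF-β and 335.3 in Control. PDIA6, an isomerase that also acts on IRE1, had 401.8 CPM with BDS4 against 499.8 CPM with TGF-β, a ratio of 0.804 (0.781 to 0.827). PDIA3, the isomerase that works with the lectins, had a ratio of 1.31 (1.28 to 1.34) for BDS4 over TGF-β, but its processed copy PDIA3P1 held 1037, 2187, 2430 and 894 counts in the BDS4, RVX-208, TGF-β and Control libraries. With copies added to the gene the ratio was 1.16, so the value for PDIA3 is uncertain.

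All 4 ERAD genes had ratios above 1 over TGF-β with BDS4 and with RVX-208, as had 7985 and 8011 of all 16099 genes. HERPUD1 was the one called, with BDS4, which is 25% of the 4 against 32.2% of all genes. HERPUD1, a membrane protein that gathers the degradation complex, stood at 122.1 CPM with BDS4, 67.5 with RVX-208, 58.2 with TGF-β and 40.0 in Control. Its ratio for BDS4 over TGF-β was 2.10 (1.96 to 2.25), just past the threshold, and was 1.96 when libraries were scaled by total counts, where it was not called. SYVN1 (HRD1), the ubiquitin ligase of the complex, stood at 184.1, 124.2, 111.8 and 86.2 CPM in the same order. SYVN1 shares exon bases with FAU on the same strand, and its ratio of 1.65 for BDS4 over TGF-β was 1.30 with the overlapping genes added. SEL1L, the partner that holds SYVN1 in place, had a ratio of 1.52 (1.46 to 1.57), and EDEM1, which trims mannose from misfolded glycoproteins, of 1.46 (1.39 to 1.53). The 4 genes together came to 869.5, 680.8, 547.1 and 444.7 CPM in the BDS4, RVX-208, TGF-β and Control libraries, the same order of libraries as in each of the 4 genes. This order is not particular to ERAD, as HSP90B1, DNAJB9, DNAJC3, MANF, PDIA3, ERO1B, ERN1, KDELR2 and MIA3 had it too. Over all genes, BDS4 was the highest library for 38.9% and Control the lowest for 24.1%.

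Of the 6 sensors and transcription factors, 1 was called higher and 1 lower with BDS4 over TGF-β. This is 33.3% called, near the 32.2% of all genes. ERN1, which encodes IRE1, the sensor that splices XBP1 RNA, stood at 196.0 CPM with BDS4, 57.4 with RVX-208, 38.5 with TGF-β and 31.2 in Control. The ratio for BDS4 over TGF-β, 5.09 (4.73 to 5.49), was the largest of the 36 genes. ERN1 lies at chr17:64039142-64130819 on the minus strand, and no exon of another gene overlaps its exons in GENCODE 29. XBP1, whose RNA is the target of IRE1, was not called and stood at 72.5, 64.9, 76.0 and 55.9 CPM in the BDS4, RVX-208, TGF-β and Control libraries. The interval of its ratio for BDS4 over TGF-β, 0.889 to 1.02, included 1. The other sensors had smaller differences, with ratios of 1.28 (1.14 to 1.44) for EIF2AK3 (PERK) and 1.18 (1.09 to 1.28) for ATF6. CREB3L1 (OASIS), an ER-anchored factor that activates type I collagen genes in mouse osteoblasts, stood at 70.0 CPM with BDS4, 129.2 with RVX-208, 194.0 with TGF-β and 150.8 in Control. It was 2.77 times lower with BDS4 than with TGF-β (2.61 to 2.94), and its ratio for RVX-208 over TGF-β was 0.666 (0.632 to 0.702). Its relative CREB3L2, which activates Sec23a in mouse cartilage, had 198.5, 222.2, 221.5 and 194.5 CPM in the same order, a ratio of 0.896 (0.860 to 0.935) for BDS4 over TGF-β.

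Of the 9 genes of the collagen chaperone, translocation, retrieval and export, SERPINH1, KDELR3 and SEC23A were called lower with BDS4 over TGF-β and none higher. These 3 genes are 33.3% of the 9, against 17.7% of all genes called lower, 14.5% called higher and 32.2% in either direction. SERPINH1 (HSP47), which binds the folded collagen triple helix, stood at 41.8 CPM with BDS4, 143.9 with RVX-208, 132.2 with TGF-β and 250.5 in Control. It was 3.17 times lower with BDS4 than with TGF-β (2.93 to 3.42), and the TGF-β library was itself 1.89 times lower than Control (1.81 to 1.98). The Control library was thus the highest of the 4 for SERPINH1, while 7 of 10 collagen genes listed as its cargo were called higher with TGF-β than in Control. The 10 collagen genes together had 35.1 counts per count of SERPINH1 with BDS4 (32.8 to 37.6), 53.7 with RVX-208, 81.1 with TGF-β (78.2 to 84.1) and 19.1 in Control (18.6 to 19.6). SERPINH1 lies at chr11:75562056-75572783 on the plus strand, and its promoter window at chr11:75562003-75562302 is shown because the gene was the furthest lowered of the 36 with BDS4 over TGF-β. It held no ER stress element of either form. Capitals mark a heat shock element (HSE), searched on both strands as TTC, GAA and TTC with 2 bases of any kind between them after the window had been read, which occurs in 0.608% of genes.
SERPINH1 promoter: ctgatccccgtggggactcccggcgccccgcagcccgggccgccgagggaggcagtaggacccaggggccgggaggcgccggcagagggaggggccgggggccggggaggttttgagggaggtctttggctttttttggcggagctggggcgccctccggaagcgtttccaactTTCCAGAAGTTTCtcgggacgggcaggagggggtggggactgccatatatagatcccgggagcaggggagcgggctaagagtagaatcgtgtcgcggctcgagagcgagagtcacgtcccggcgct

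SEC23A, a coat protein of COPII carriers whose loss impairs collagen export, stood at 114.3 CPM with BDS4, 229.7 with RVX-208, 234.6 with TGF-β and 232.1 in Control. The 3 other libraries lay close together, and BDS4 was 2.05 times lower than TGF-β (1.95 to 2.16). SEC24D, a cargo-binding partner of SEC23A, had 62.5 CPM with BDS4 and 90.6 CPM with TGF-β, a ratio of 0.690 (0.643 to 0.740). KDELR3, a receptor that returns escaped ER proteins, stood at 26.3, 45.7, 56.7 and 51.0 CPM in the BDS4, RVX-208, TGF-β and Control libraries, 2.16 times lower with BDS4 than with TGF-β (1.95 to 2.39). Its relative KDELR2 was not called, at a ratio of 1.09 (1.04 to 1.13). MIA3 (TANGO1), the ER exit site protein that loads procollagen into carriers, stood at 74.8, 70.2, 65.1 and 51.2 CPM in the same order, and its partner MIA2 (cTAGE5) at 22.3, 15.2, 17.8 and 13.6 CPM. PREB (SEC12), which starts coat assembly, and SEC61B, a subunit of the translocation channel, had ratios of 1.21 and 0.967 for BDS4 over TGF-β. The 9 genes together came to 769.3 CPM with BDS4, 1019 with RVX-208, 995.8 with TGF-β and 1067 in Control. The promoters of KDELR3, SEC23A and HYOU1 each held the element UPRE, TGACGTGG, searched on both strands and found in 0.927% of genes. These sites are shown because they are the 3 of the 32 genes searched that hold it and all had ratios below 1 with BDS4 over TGF-β. Such ratios were held by 11 of the 36 genes and 8109 of all 16099, and HYOU1 was not called. Whether motif and ratio are linked was not tested. The reverse complement of UPRE contains CCACG, and in HYOU1 UPRE overlaps an element of the second form. The motif is in capitals with 10 bases on each side, and all 3 sites lie on the minus strand.
KDELR3 (chr22:38468040-38468067): ggccgggcggTGACGTGGccagggcggc
SEC23A (chr14:39103222-39103249): cccctcctctTGACGTGGcagaggcggc
HYOU1 (chr11:119057376-119057403): gctggccccgTGACGTGGtccaatccca
The amino acid response element (CARE), searched on both strands as TGATGNAA, was found in HERPUD1 and CREB3L2, against 4.46% of genes.

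**Figure D3:**
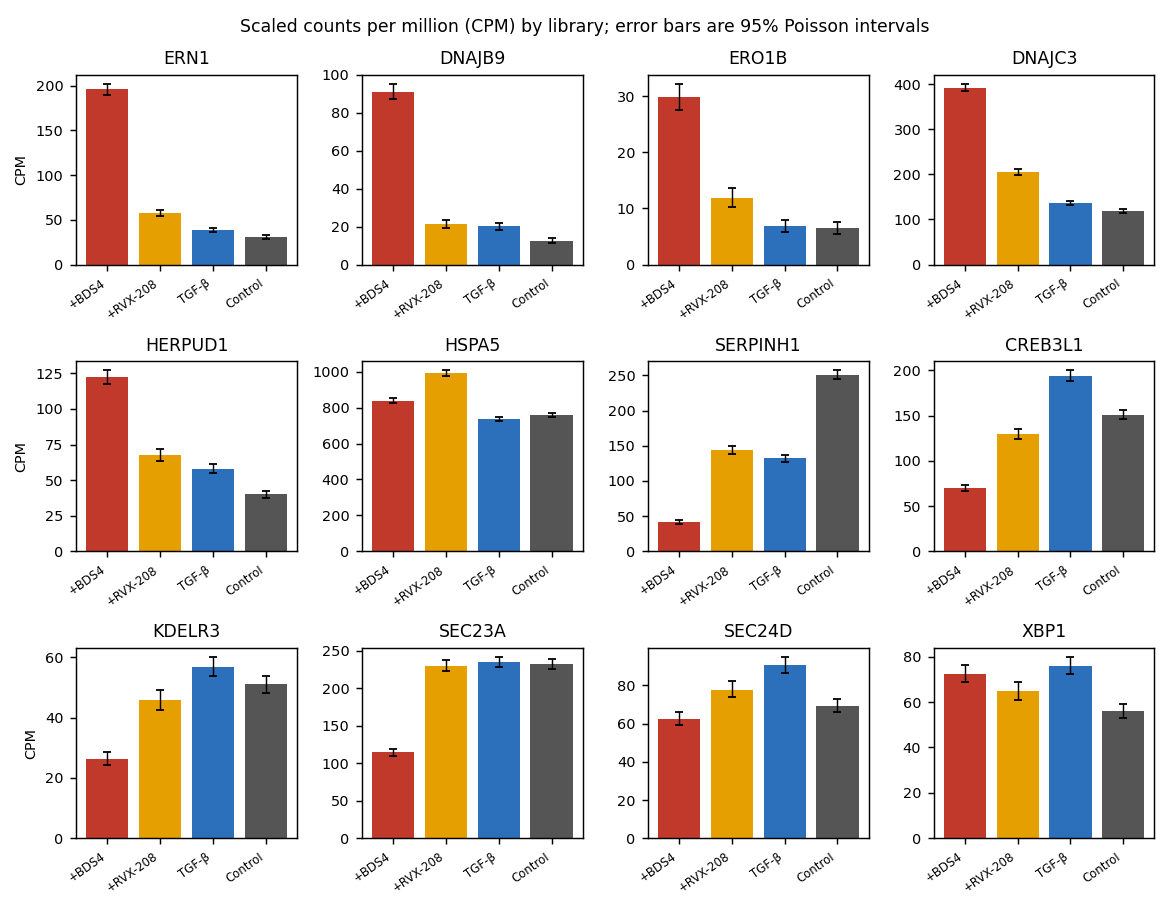
TMM-scaled CPM in the 4 libraries for 12 of the 36 genes, with bars from 0 and error bars of 95% Poisson intervals (counting error only, 1 library per group). ERN1, DNAJB9, ERO1B, DNAJC3 and HERPUD1 are highest with BDS4, HSPA5 with RVX-208, and SERPINH1 in Control.

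With RVX-208 and TGF-β against TGF-β, 0 of the 36 genes were called, against 8.19% of all 16099 genes (2.94% higher and 5.25% lower). The log2 ratios ran from -0.59 to 0.79, and 27 of 36 were positive, beside 8011 of all 16099 genes. The median of the 36 was 0.19 beside -0.00 over all genes. By a threshold of 1.5-fold, ERO1B at 1.74, PDIA4 at 1.59 and DNAJC3 at 1.51 were higher and CREB3L1 was lower, which is 4 of 36 genes against 17.1% of all genes (6.6% higher and 10.4% lower). ERN1 had a ratio of 1.49 (1.36 to 1.64) and MANF of 1.47 (1.40 to 1.56). All 6 disulfide isomerases and oxidases had ratios above 1, from 1.17 for PDIA6 to 1.74 for ERO1B. SERPINH1 and SEC23A, which were called lower with BDS4, had ratios of 1.09 (1.03 to 1.15) and 0.979 (0.939 to 1.02) with RVX-208. Both comparisons rest on the same TGF-β library, so their ratios are not independent.

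**Figure D4:**
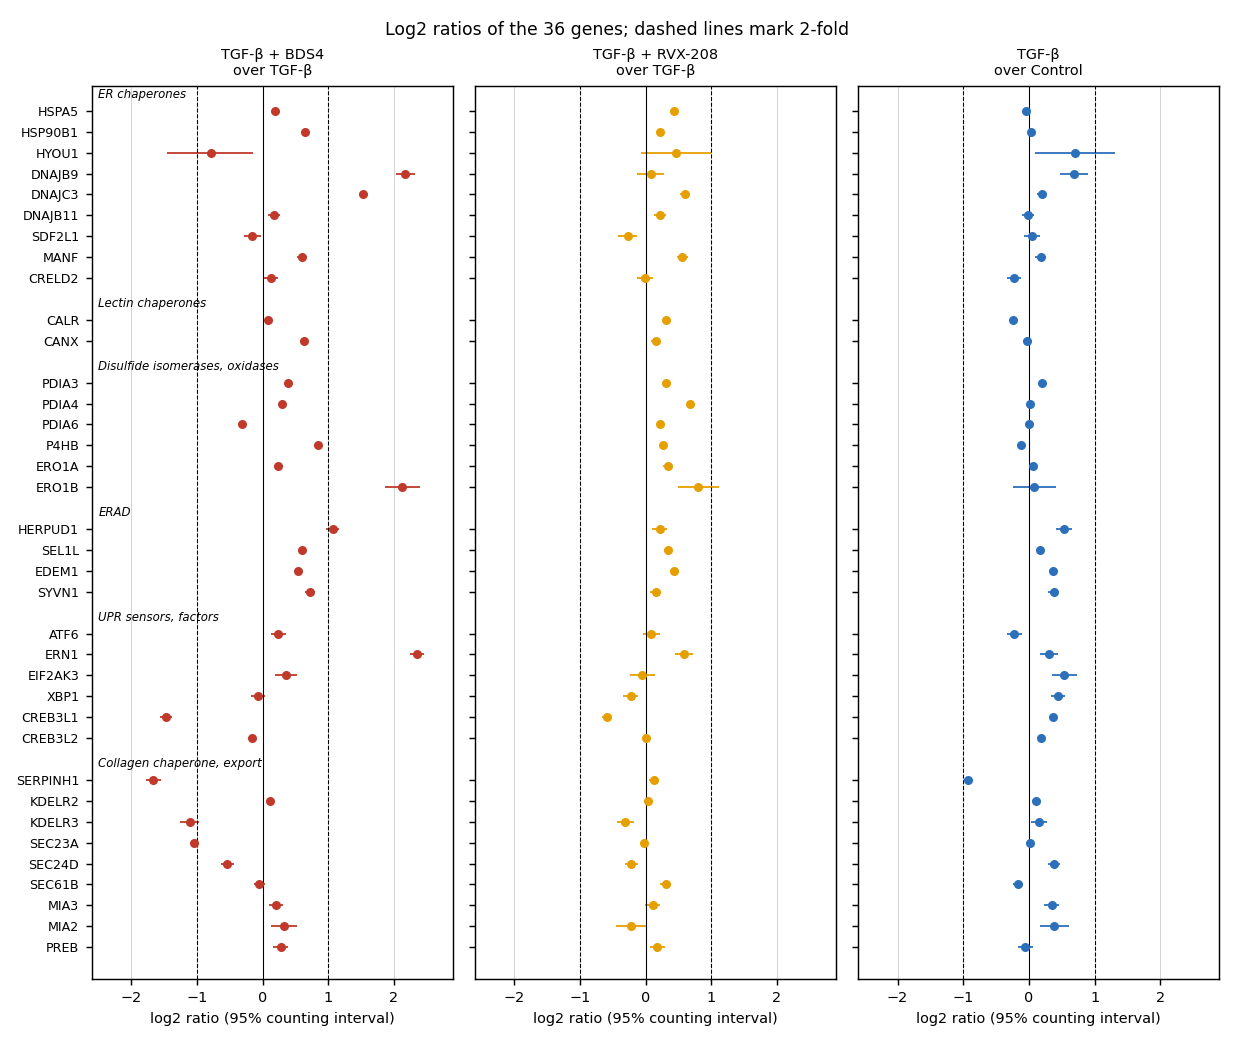
Log2 ratios of the 36 genes by role for BDS4 over TGF-β, RVX-208 over TGF-β and TGF-β over Control, with 95% intervals for counting error and dashed lines at 2-fold. In the panel of BDS4, 5 genes pass the upper line and 4 the lower, and in the other panels none is called.

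BDS4 was set directly against RVX-208, since both were given at 5 µM with TGF-β for 24 h, and this comparison shares its BDS4 library with the one against TGF-β. Of the 36 genes, 6 were called (16.7%), 3 higher and 3 lower, against 24.8% of all genes (11.7% higher and 13.1% lower), and the median log2 ratio was 0.10 beside -0.01 over all genes. With a threshold of 1.5-fold, 5 were higher and 5 lower, which is 10 of 36 genes against 42.9% of all genes (21% higher and 21.8% lower). DNAJB9 was 4.28 times higher with BDS4 than with RVX-208 (3.82 to 4.81), ERN1 3.41 times (3.18 to 3.66) and ERO1B 2.51 times (2.14 to 2.96). SERPINH1 was 3.45 times lower with BDS4 (3.19 to 3.73), and SEC23A 2.01 times lower (1.91 to 2.12). The call of SEC23A ended under median-of-ratios scaling, where it was 1.98 times lower. HYOU1 was the third gene called lower, on 32 counts with BDS4 against 63 with RVX-208. HSPA5, PDIA4 and PDIA6 stood lower with BDS4 than with RVX-208, at ratios of 0.846 (0.828 to 0.864), 0.771 (0.748 to 0.794) and 0.689 (0.669 to 0.710), whereas ERN1 and DNAJB9 stood higher. Ratios of DNAJB11, SDF2L1, MANF, MIA3 and PREB had intervals that included 1, for MANF from 0.979 to 1.08.

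With TGF-β against Control, 0 of the 36 genes were called, against 9.68% of all genes (5.32% higher and 4.37% lower). The median log2 ratio was 0.13, beside -0.01 over all genes. By the threshold of 1.5-fold, HYOU1 at 1.62 and DNAJB9 at 1.60 were higher and SERPINH1 was lower, which is 3 of 36 genes against 19.1% of all genes (10.1% higher and 8.99% lower). All 4 ERAD genes had ratios above 1, as had 7845 of all 16099 genes. The 4 ratios ran from 1.12 (1.08 to 1.17) for SEL1L to 1.45 (1.33 to 1.58) for HERPUD1. EIF2AK3 had a ratio of 1.45 (1.27 to 1.65) and XBP1 of 1.36 (1.26 to 1.46), while ATF6 had 0.859 (0.795 to 0.928). HSPA5, HSP90B1, DNAJB11, PDIA4 and PDIA6 had ratios from 0.975 to 1.02. The ratios of the export genes SEC24D, MIA2 and MIA3 were 1.31, 1.31 and 1.27, and that of CREB3L1 was 1.29 (1.23 to 1.34).

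**Figure D5:**
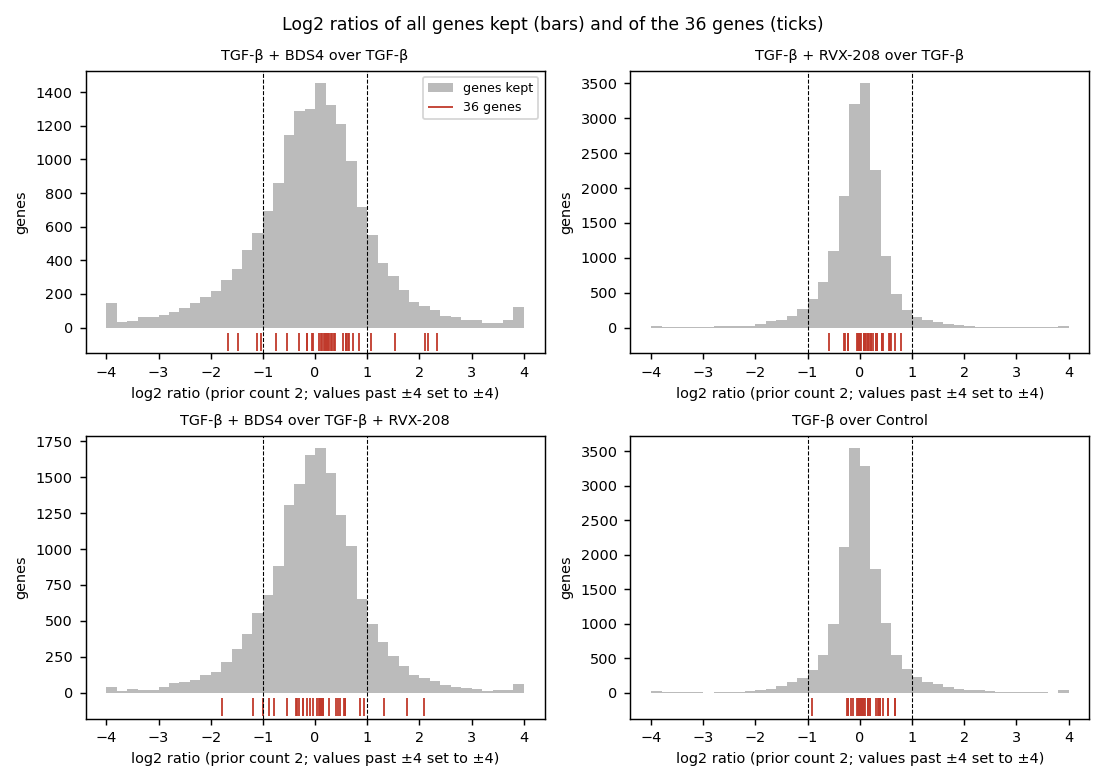
Log2 ratios (prior count 2) of all 16099 genes kept, as bars of gene counts, and of the 36 genes, as ticks under the bars, in the 4 comparisons, with dashed lines at 2-fold. The ticks lie mostly between the lines, with 9 genes called for BDS4 over TGF-β and none for RVX-208 over TGF-β or TGF-β over Control.

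Other genes of the secretory pathway and the unfolded protein response, 110 in 8 lists, were read beside the 36, and 105 passed the filter. With BDS4 over TGF-β, 15 of the 105 were called higher and 4 lower (18.1%), against 32.2% of all genes (14.5% higher and 17.7% lower), so their share was below that of all genes. Of these, 8 came from the list of the PERK and ATF4 arm, where 8 of 13 measured genes were called higher, 0 lower and the median log2 ratio was 1.55, against 14.5% of all genes called higher and a median of -0.01. ASNS (asparagine synthetase) stood at 1034 CPM with BDS4, 52.5 with RVX-208, 46.9 with TGF-β and 56.1 in Control, a ratio of 22.0 (20.7 to 23.5) for BDS4 over TGF-β. DDIT3 (CHOP), a factor of prolonged stress, stood at 143.9, 28.3, 20.4 and 30.7 CPM in the same order, and ATF4 itself at 158.4, 53.8, 73.5 and 61.0 CPM. The BDS4 library was alone at these levels for all 3 genes. The name of the list states what its genes are grouped by, and activity of PERK was not measured. Whether PERK or another input to ATF4 had a part in these differences was not tested. With RVX-208 over TGF-β, ATF3 was called higher in this list, at 21.4 against 9.87 CPM, and PPP1R15A lower, at 55.8 against 124.5 CPM. In this list 2 genes were called higher and 1 lower with RVX-208 over TGF-β, against 2.94% and 5.25% of all genes. For TGF-β over Control 0 of 13 were called, against 9.68% of all genes.

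In the other lists of the 8, from 0% to 27.3% of genes were called with BDS4 over TGF-β, against 32.2% of all genes. With BDS4 over TGF-β, the signal peptidase subunits SEC11C and SPCS2 had ratios of 2.10 and 0.481, 1 call each way among 16 translocation genes that included SEC61A1 at 1.17. In the ERAD list 2 of 14 genes were called, both higher, among them UFD1, a cofactor of the extraction ATPase, at 2.63. The isomerase TXNDC5 was called higher with both compounds, at 253.3 CPM with BDS4 and 465.2 CPM with RVX-208, against 97.6 CPM with TGF-β. In the list of collagen folding, the prolyl hydroxylase subunit P4HA1 at 2.51 and the prolyl isomerase FKBP14 at 2.19 were called higher. Of its 11 genes, 1 was called lower. Most of this list went the other way from the 2 named genes, with 8 negative and 3 positive log2 ratios and a median of -0.09. Over all 16099 genes 8109 were negative and the median was -0.01. Among 19 carrier and receptor genes TFG, a protein of ER exit sites, was called higher at 2.16 and the retrieval receptor KDELR1 lower at 0.482. SAR1A, the GTPase that starts coat assembly, was called lower with RVX-208 at 0.399. ATF6B, a relative of ATF6, at 0.932 CPM with BDS4 against 3.49 CPM with TGF-β, was the 1 called of 12 regulators, and 0 of 8 oligosaccharyltransferase genes were called. With TGF-β over Control 2 of the 105 were called (1.90%), against 9.68% of all genes. SRPRB, a subunit of the signal recognition particle receptor, was higher at 2.15 and WFS1 (wolframin) lower at 0.467. Over the 105 genes, RVX-208 over TGF-β had 3 called higher and 3 lower (5.71%), against 8.19% of all genes. BDS4 over RVX-208 had 11 higher and 2 lower (12.4%), against 24.8% of all genes. Of the 11, 7 came from the PERK and ATF4 list. Procollagen cargo had a median log2 ratio further from 0 than each of the 8 lists. With BDS4 over TGF-β, 9 of 10 collagen genes were called lower at a median log2 ratio of -2.58, against 17.7% of all genes. With RVX-208 over TGF-β 4 of 10 were called lower, against 5.25% of all genes. These 4 had 10, 27, 1322 and 2732 counts with RVX-208, so part of this number rests on few counts. COL1A1 was not among them, at a ratio of 0.624 for RVX-208 over TGF-β. With TGF-β over Control 7 of 10 were called higher, against 5.32% of all genes. COL1A1 stood at 102.6 CPM with BDS4, 2935 with RVX-208, 4705 with TGF-β and 2075 in Control.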

How the data were processed

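RNA-seq of 4 LX-2 libraries was used, 1 per group, grouped by the labels' titles. The deposited table holds raw counts per gene, which the comparisons use, and FPKM values, which per the series' design text the authors made with StringTie 1.3.0. Reads were aligned to GRCh38 with TopHat2 2.0.6 and bases called with CASAVA 1.8, per the submitters' processing notes. The library kit was stranded. Neither the counting program nor its annotation or strand option is given in the sources used here. For 9069 genes with over 200 counts in every library, the deposited FPKM values followed the counts with 1 length per gene, to within 0.000417%.

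Counts were scaled by TMM (edgeR 4.0.16, R 4.3.3; factors 0.943, 0.989, 1.01 and 1.06 for BDS4, RVX-208, TGF-β and Control) over genes that reached 1 CPM in 1 library or more. No model was fitted and no test run. Intervals of ratios are 95% conditional exact (Clopper-Pearson) intervals, and those of levels are exact Poisson intervals. These intervals, like the floors, cover counting error only. A floor of 3 counts was 0.147, 0.178, 0.136 and 0.126 CPM in the same order. Log2 ratios of lists use a prior count of 2. Exon lengths and overlaps came from GENCODE 29. Of the 36 genes, 4 overlap exons of a same-strand neighbour and 19 those of an opposite-strand one. Other steps used Python 3.11.15, numpy 2.4.6, scipy 1.17.1, pandas 2.3.3 and matplotlib 3.10.9. The calling step was tested on simulated data.

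The genes and lists were chosen with earlier results of these data known. Beside the 36 genes, named genes are the 2 with the largest ratios among those called in each list and comparison, plus SEC61A1, DDIT3, ATF4 and COL1A1. A gene that this rule would name is not reported here. VIM, PDGFRB, TAGLN, ACTA2, LRAT, DES, TTR, PTPRC, EPCAM and KRT18 are named from the marker lists, and FAU and PDIA3P1 as overlapping or copied genes.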

Additional observations from a re-analysis of the deposited data

How the results depend on the processing

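Alternatives were library totals or median-of-ratios size factors in place of TMM, a 1.5-fold threshold, no filter or a filter of 5 CPM, a prior count of 0.5, and the counts of same-strand overlapping genes added to a gene. Adding named pseudogenes was chosen after seeing the data. With the 1.5-fold threshold the genes called were 16 of 36 for BDS4 over TGF-β, 4 for RVX-208 over TGF-β, 10 for BDS4 over RVX-208 and 3 for TGF-β over Control, against 50.9%, 17.1%, 42.9% and 19.1% of all genes. The 5 CPM filter kept 35 of the 36 genes. In the same order of comparisons 9, 0, 5 and 0 of these were called, against 28.7%, 5.22%, 21.6% and 6.84% of all genes. These shares of all genes were lower than with the main filter, so the distance between the 36 genes and all genes depends on the filter. With library totals the median log2 ratio for BDS4 over TGF-β was 0.14 in place of 0.24. That scaling shifts every log2 ratio by -0.10 for this comparison, by its construction. With the same scaling the median was 0.03 in place of 0.10 for BDS4 over RVX-208, and 0.06 in place of 0.13 for TGF-β over Control. The other counts stayed within 1.5 times, and every median stayed above 0. Single calls that ended were HERPUD1 for BDS4 over TGF-β with library totals, and for BDS4 over RVX-208 SEC23A with median-of-ratios scaling and HYOU1 with the 5 CPM filter. No paired analysis was possible because each group has 1 library, and for the same reason no replicate could be left out. Depth limits HYOU1 most. Variation between cultures, which the intervals do not cover, was not measured.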
